A study of Mus musculus with 90 samples.

Results

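The 42 genes described here act in DNA replication (S phase, 18 genes) or in chromosome segregation and cell division (mitosis, 24 genes). They were taken from the 53697 gene rows of the count matrix by matching Ensembl identifiers to a list of symbols. The matching used no measured value, but the list was drawn up with earlier results of these data known. The counts come from 3′ digital gene expression of 2 mouse tumour cell lines, YUMM2.1, a melanoma line, and CT26, a colon carcinoma line. Both lines were exposed to interferon-γ (IFNγ), a cytokine that signals through JAK kinases, and the question here was whether transcripts of the replication and division machinery moved with short or long exposure, on rechallenge, or between the lines. Each line gave 15 groups of 3 samples, 90 samples in all. The 0-week groups were control cells (bovine serum albumin, BSA) and naive cells given 50 IU/mL IFNγ for 2 h or 24 h. At 1, 2 and 3 weeks there were control cultures kept in BSA, cultures kept in IFNγ and harvested without rechallenge (0 h), and cultures kept in IFNγ and rechallenged with fresh IFNγ for 2 h or 24 h. Cells were plated 48 h before harvest. The labels name no allele and no other cells in the cultures, and give the replicates as triplicate experiments without saying whether these were separate cultures, so p-values measure the spread between such samples.

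Cells copy their DNA once per cycle: the MCM helicase is loaded at origins by Cdc6 and Cdt1, joined by Cdc45 and the GINS complex, and PCNA clamps the polymerases to the template while ribonucleotide reductase and thymidylate synthase make the nucleotides. Mitosis is driven by CDK1 with cyclins A and B and by the Aurora and Polo kinases, and ends when the anaphase-promoting complex destroys cyclins. The 2 sets are transcribed in successive waves, the first through E2F factors and the second through complexes that bind CHR and CCAAT elements, so they serve as a readout of how much of a culture is cycling; in bulk samples, fewer cycling cells and less RNA per cycling cell cannot be told apart.

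Total counts ran from 274719 to 3161276 per sample in YUMM2.1 (median 1403265) and from 295157 to 2205285 in CT26 (median 1318011). In YUMM2.1, 1 library had under 25% of the line's median total (replicate 3 of the 3-week IFNγ 0 h group), and in CT26 there were 2 (replicate 3 of the 1-week and of the 3-week IFNγ 0 h groups), and are called the shallow libraries here. All 42 members passed the filter on low counts in both lines, among 9589 genes tested in YUMM2.1 and 8516 in CT26. Median counts per sample ran from 17 for Ccne1 to 954 for Rrm2 in YUMM2.1 and from 13 for E2f1 to 1956 for Hmgb2 in CT26. Of the members, 19 overlap another annotated gene, so reads from the overlapped stretch may be shared, and annotated pseudogene copies of Pcna, Ccnb1, Ccnb2 and Tyms held at most 0.645% of their parent's counts. The treatment labels were checked with Irf1 and Gbp2, of which both were called higher at 2 h and 24 h in naive cells and at 1, 2 and 3 weeks of IFNγ in both lines, with log2 fold changes from 1.47 to 6.09. On rechallenge both were called higher at 1 and 2 weeks in both lines, and after 2 h at 3 weeks in YUMM2.1. At 3 weeks neither was called after 24 h in YUMM2.1 (Irf1 0.17, Gbp2 -0.17). The same held in CT26 after 2 h (0.46 and 0.43) and 24 h (-0.24 and 0.07). Of 6 melanocyte markers, Sox10 and Mitf had a median above 1 CPM (counts relative to the library size, scaled by trimmed mean of M values, TMM) in YUMM2.1 and Dct and Mitf in CT26, where Mlana and Sox10 were at 0. Their summed level was 16.4 to 58.9 CPM in YUMM2.1 and 0.679 to 16.7 CPM in CT26. Of 6 epithelial markers, Krt18 and Krt20 were above 1 CPM in CT26, with Epcam, Cdh1 and Krt19 at 0 there, and the sum was 42.6 to 124 CPM in CT26 and 0 to 2.42 CPM in YUMM2.1. Of 3 fibroblast markers, Col1a1 and Col1a2 were above 1 CPM in CT26 and Col1a2 in YUMM2.1, with sums of 34 to 153 CPM and 4.1 to 44.7 CPM. Cd3e, a T cell marker, was at 0 in both lines. Pecam1, an endothelial marker, was read in both lines, and the summed level of Pecam1 and Cdh5 was 273 to 528 CPM in YUMM2.1 and 226 to 503 CPM in CT26, where Cdh5 was at 0. The part of these markers in the results was not tested.

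The promoters of the members were searched for 3 sequence elements that the choice of genes did not use. RefSeq promoters (GRCm38.p6, 250 bases before to 50 after each start, 27025 genes) were found for 34 of the 42 members, 14 of S phase and 20 of mitosis. An E2F site, searched as TTTCCCGC, TTTCGCGC, TTTGCCGC or TTTGGCGC on either strand, lay in 6 of 14 S phase promoters (42.9%), in 1 of 20 mitosis promoters (5%) and in 2.6% of all promoters. The 6 were those of Cdc6, Cdt1, Mcm3, Mcm5, Mcm6 and Mcm7, and the mitosis gene was Cdk1. The promoters of Birc5, Nusap1, Ccne1, E2f1 and Tyms held a match to none of the 3 elements. A CHR element, TTTGAA or TTCGAA on either strand, lay in 16 of 20 mitosis promoters (80%), 3 of 14 S phase promoters (21.4%) and 21.7% of all promoters. A CCAAT box on either strand lay in 18 of 20 mitosis promoters (90%), 9 of 14 S phase promoters (64.3%) and 41.1% of all. Letters can overlap, as in Mcm6, where E2F matches on opposite strands share bases. For this reason 170 bases (120 before to 50 after the start, on the gene's strand) are given for 2 helicase subunits with E2F matches and for 2 mitosis genes with CHR and CCAAT matches. Capitals mark the matches, read on either strand, and a match describes letters only.
Mcm3, chr1:20820263-20820432, minus strand: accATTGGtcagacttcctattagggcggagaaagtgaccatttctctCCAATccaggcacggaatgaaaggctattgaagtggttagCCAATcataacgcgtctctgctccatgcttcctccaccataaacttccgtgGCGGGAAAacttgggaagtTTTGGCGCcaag
Mcm6, chr1:128359656-128359825, minus strand: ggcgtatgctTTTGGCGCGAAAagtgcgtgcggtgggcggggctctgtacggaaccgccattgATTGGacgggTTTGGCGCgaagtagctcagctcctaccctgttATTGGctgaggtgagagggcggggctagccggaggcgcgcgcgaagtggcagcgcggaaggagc
Ccnb2, chr9:70421505-70421674, minus strand: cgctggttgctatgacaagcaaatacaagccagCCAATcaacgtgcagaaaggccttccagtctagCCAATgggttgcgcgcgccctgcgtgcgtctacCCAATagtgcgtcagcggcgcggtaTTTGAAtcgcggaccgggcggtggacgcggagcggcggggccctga
Cdk1, chr10:69352863-69353032, minus strand: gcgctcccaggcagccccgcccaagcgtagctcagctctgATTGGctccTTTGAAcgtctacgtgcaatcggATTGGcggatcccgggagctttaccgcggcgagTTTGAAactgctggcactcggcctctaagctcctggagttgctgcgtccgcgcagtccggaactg
The 2 helicase windows each carried more than 1 E2F match, the Ccnb2 window carried 3 CCAAT boxes before a CHR element that began 4 bases from the start, and the Cdk1 window carried 2 reversed CCAAT boxes and 2 CHR elements.

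The mean log2 levels of the 2 sets spanned 0.17 to 0.24 over the 15 groups of each line, and more where abundant members weighed more. The level of a set was taken as the mean log2 CPM of its members, scaled by TMM with a prior count of 2, and is a description with no test. In YUMM2.1 the group means of the S phase level ran from 6.08 after 2 weeks with 2 h of rechallenge to 6.24 in the 0-week control, a span of 0.17, beside a pooled SD between replicates of 0.0806. The mitosis level in YUMM2.1 ran from 6.89 after 3 weeks with 24 h of rechallenge to 7.07 in the 1-week control, a span of 0.18 beside an SD of 0.0508. In CT26 the S phase level ran from 5.94 in the 3-week control to 6.18 after 1 week with 24 h of rechallenge, a span of 0.24 beside an SD of 0.0935, and without the shallow libraries a span of 0.26 beside an SD of 0.0589. The CT26 mitosis level ran from 6.53 after 3 weeks with 24 h of rechallenge to 6.70 in the 1-week control, a span of 0.17 beside an SD of 0.0619. On the log2 of summed CPM, where abundant members weigh more, the spans were 0.33 (S phase) and 0.42 (mitosis) in YUMM2.1 and 0.26 (S phase) and 0.59 (mitosis) in CT26. Scaled by library totals, the CT26 spans were 0.38 (S phase) and 0.25 (mitosis). The lowest single S phase level in each line belonged to its shallow 3-week library, 5.95 in YUMM2.1 and 5.77 in CT26.

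**Figure D1:**
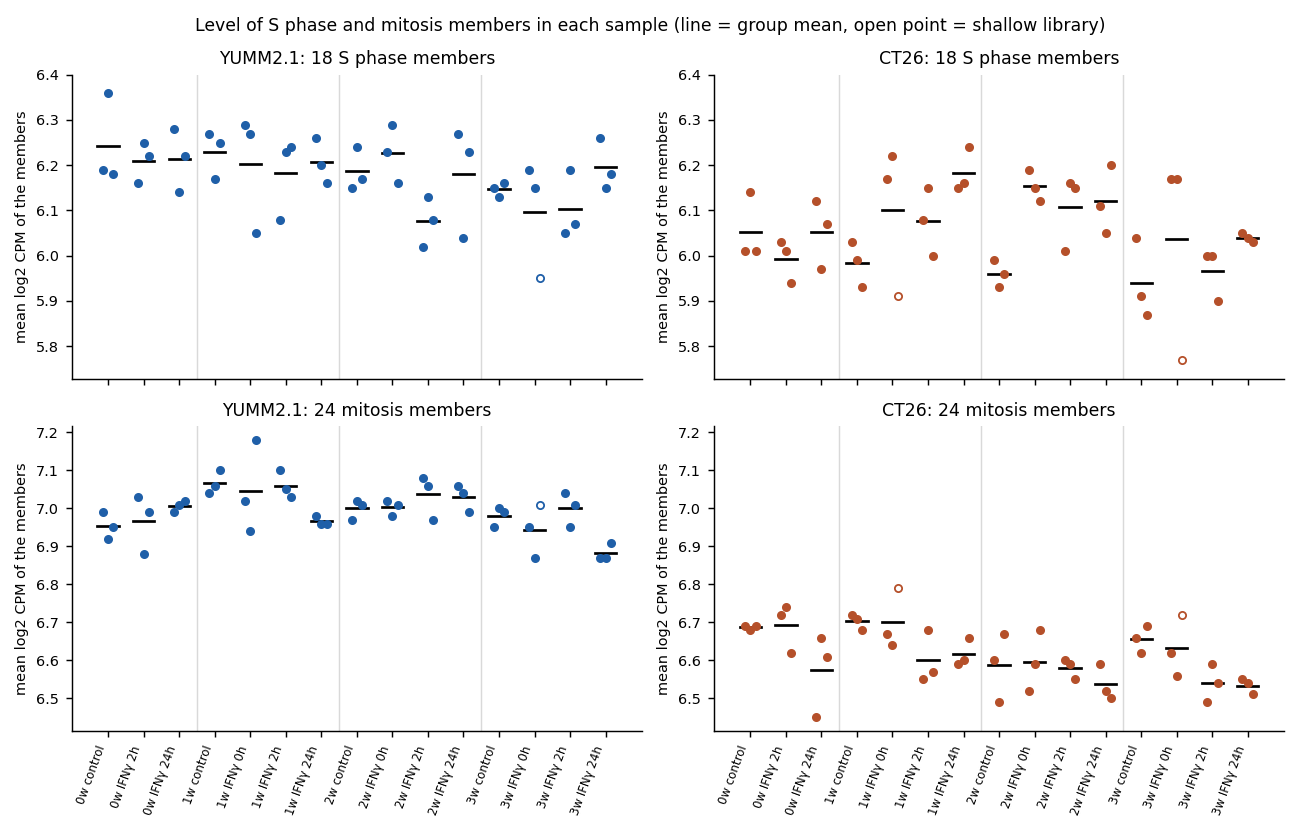
Mean log2 CPM of the 18 S phase members (top) and the 24 mitosis members (bottom) in each of the 45 samples of YUMM2.1 (left) and CT26 (right), ordered by group, with a line at each group mean and an open point for each shallow library. Group means stayed within 0.24 of each other in every panel, and the open points of the S phase panels lie lowest in their groups.

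Single members were compared by their group means. The highest group mean CPM of a member was a median 1.46 times its lowest over the 15 groups of YUMM2.1 and 1.54 times in CT26, and the ratio was under 2 for 37 of 42 members in YUMM2.1 and 34 of 42 in CT26. Over all genes tested the median ratio was 2.05 in both lines, and 48.1% of genes in YUMM2.1 and 47.8% in CT26 stayed under 2. Among genes within the members' range of abundance the shares under 2 were 70.6% and 69.9%. Hmgb2, a chromatin protein abundant in dividing cells, had the largest ratio in YUMM2.1 (4.22) and E2f1, a transcription factor that drives S phase genes, the largest in CT26 (3.13, with group means of 5 to 15.6 CPM). Among the steadiest were Mcm7, a helicase subunit, with a ratio of 1.17 in CT26, and Pcna with 1.18.

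In naive YUMM2.1 cells IFNγ called no member. A gene is called here when edgeR's quasi-likelihood test gave a Benjamini-Hochberg adjusted p under 0.05 over all genes tested in the line. After 2 h 0 of 42 members were called by edgeR or by DESeq2, with 0 members at an unadjusted p under 0.05 in either tool, beside 0.24% of all genes called. After 24 h the count was again 0 by both tools, with 8 members (7 in DESeq2) at an unadjusted p under 0.05, beside 0.886% of all genes called. Of all genes, 3.63% after 2 h and 7.02% after 24 h had an unadjusted p under 0.05 in edgeR, beside 19% of members after 24 h. The preset members, 8 genes whose values are given whatever their result, had log2 fold changes after 2 h from -0.27 (Mcm6, SE 0.23) to 0.21 (Mki67, SE 0.26), with Mcm5 at -0.09, Pcna at 0.06, Rrm2 at -0.21, Top2a at 0.09, Cdk1 at -0.08 and Ccnb1 at -0.12. The 8 members at small p after 24 h were of mixed direction. Mki67, the proliferation antigen Ki-67, had the smallest p. Its levels were 57.8, 78.1 and 50.8 CPM in the controls and 100, 98.4 and 89.5 CPM after 24 h, so that the groups did not overlap, with a log2 fold change of 0.65 (SE 0.26, adjusted p = 0.531). Ccna2, which encodes cyclin A2, went from 30, 29.3 and 24.5 CPM to 15.7, 18.4 and 18.7 CPM, also without overlap. Its log2 fold change was -0.64 (SE 0.26, adjusted p = 0.542). Here and below, a lack of overlap, or a place above or below every control, is a description and not a test. How many of all genes separated in this way was not counted, and groups this small can separate by chance.
The other preset members lay closer to the control after 24 h. Mcm5 and Mcm6, helicase subunits, had log2 fold changes of -0.09 (95% interval -0.41 to 0.22) and -0.14 (-0.61 to 0.33). Pcna, the sliding clamp, had -0.01 (-0.26 to 0.23), and Rrm2, the regulated subunit of ribonucleotide reductase, had -0.28 (-0.63 to 0.07). Among the mitosis genes, Top2a (topoisomerase II alpha) had 0.30 (-0.07 to 0.66), Cdk1 had -0.21 (-0.43 to 0.00) and Ccnb1 (cyclin B1) had -0.11 (-0.41 to 0.19). Intervals of 38 of the 42 members lay within a 2-fold change either way after 24 h, as against 52.4% of all genes tested. The median SE was 0.173 for the members and 0.348 for all genes.

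In naive CT26 cells the counts were alike. After 2 h 0 of 42 members were called by either tool, with 1 member at an unadjusted p under 0.05 in each, beside 0.235% of all genes called. After 24 h 0 were called by either tool, with 3 members at an unadjusted p under 0.05 in each, beside 2.04% of all genes called. The 3 were Aurkb (Aurora B kinase, log2 fold change -0.33, adjusted p = 0.391), Hmgb2 (-0.92, adjusted p = 0.417) and Ccne2 (cyclin E2, 0.41, adjusted p = 0.434). Of all genes, 3.64% after 2 h and 11.4% after 24 h had an unadjusted p under 0.05 in edgeR. Hmgb2 lay below every control in all 3 treated samples, with 1640, 1690 and 2290 CPM in the controls and 691, 776 and 1450 CPM after 24 h, although its test did not pass with all samples fitted. It was called lower when only the groups compared were fitted (-0.93, adjusted p = 0.0158), without replicate 3 (-1.18, adjusted p = 0.00939) and without a filter on low counts (-0.97, adjusted p = 9.47e-13). DESeq2 gave -0.93 (adjusted p = 0.569).
After 2 h the preset members of CT26 ran from -0.42 (Mcm6, SE 0.28) to 0.15 (Cdk1, SE 0.11), with Mcm5 at -0.04, Pcna at -0.05, Rrm2 at -0.03, Mki67 at 0.14, Top2a at 0.03 and Ccnb1 at -0.10. Of the preset S phase members after 24 h, Mcm5 had a log2 fold change of 0.11 (-0.17 to 0.39), Mcm6 -0.59 (-1.24 to 0.05), Pcna 0.00 (-0.24 to 0.25) and Rrm2 0.34 (-0.01 to 0.69). Of the mitosis members, Ccnb1 had 0.07 (-0.25 to 0.40), Cdk1 0.01 (-0.21 to 0.24), Top2a 0.05 (-0.29 to 0.38) and Mki67 -0.51 (-1.46 to 0.44). The intervals of Mcm6 and Mki67 were the widest of these, and Mki67 was read at 15.8, 15.3 and 16.4 CPM on 8 to 22 counts in the treated samples.

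The response of the members to 24 h of IFNγ was compared between the lines in a fit of all 90 samples. For the difference (CT26 minus YUMM2.1) 0 of 42 members were called by either tool, with 4 members (3 in DESeq2) at an unadjusted p under 0.05, beside 0.087% of the 10339 genes tested. Of all genes tested, 8.2% had an unadjusted p under 0.05 in edgeR. Rrm2 had the smallest adjusted p, with a difference of 0.64 (SE 0.27, adjusted p = 0.578), and Mki67, which was higher after 24 h in all 3 YUMM2.1 samples and lower in all 3 CT26 samples than every control, had -1.13 (SE 0.53, adjusted p = 0.593). The other preset members had differences of 0.23 (Mcm5), -0.42 (Mcm6), 0.04 (Pcna), -0.23 (Top2a), 0.25 (Cdk1) and 0.21 (Ccnb1).

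**Figure D2:**
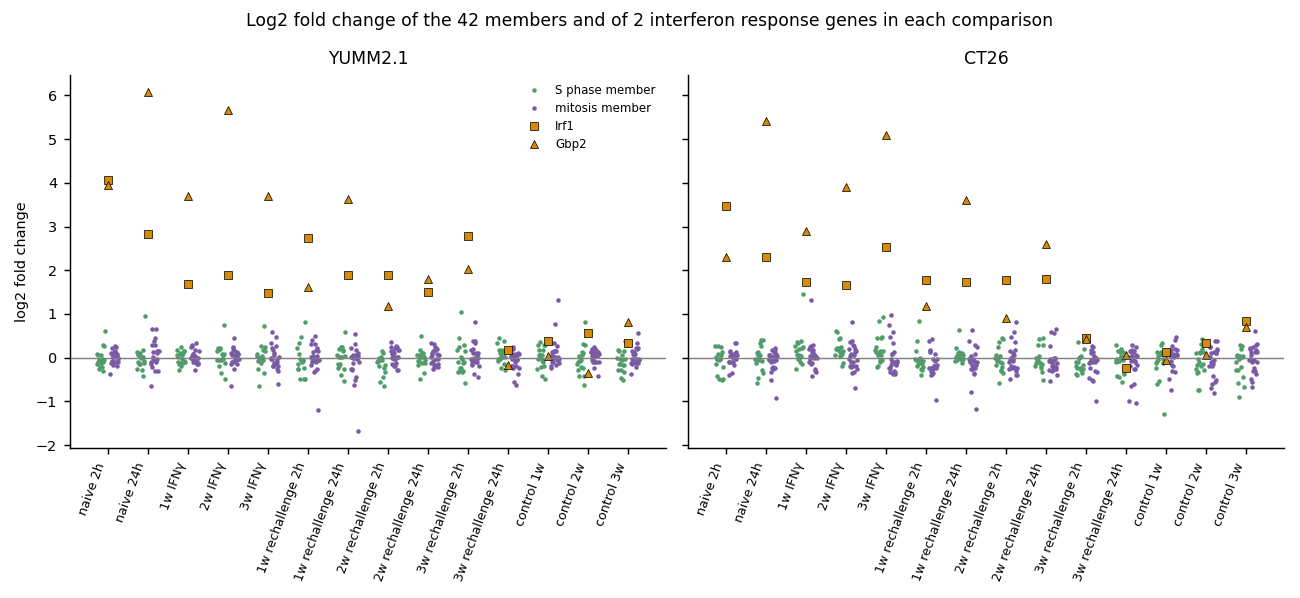
Log2 fold change (vertical axis) of each S phase member (green) and mitosis member (purple) in the 14 comparisons within YUMM2.1 (left) and CT26 (right), with Irf1 and Gbp2 in orange. Members lay between -1.68 and 1.45 in all 28 comparisons, whereas the 2 response genes lay at 1.47 or above in naive cells and at 1 to 3 weeks of IFNγ.

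No member of YUMM2.1 was called after 1, 2 or 3 weeks of IFNγ against age-matched controls, where at most 1.12% of all genes were. A count of 0 among 42 lies near that share. At 1 week 0 of 42 were called by either tool, with 0 at an unadjusted p under 0.05 in each, beside 0.73% of all genes called. At 2 weeks 0 were called by either tool, with 2 at an unadjusted p under 0.05 in each, beside 1.12%. At 3 weeks 0 were called by either tool, with 3 at an unadjusted p under 0.05 in each, beside 0.97%. Of all genes, 5.94%, 7.19% and 10.5% had an unadjusted p under 0.05 in edgeR at the 3 ages. The median log2 fold change of the 42 members was 0.00, 0.04 and -0.02 at the 3 ages, beside 0.00, 0.01 and 0.00 over all genes.
Mcm6 had the smallest p at 3 weeks. It was read at 45.3, 39.0 and 45.2 CPM in the 3-week controls and at 27.5, 34.0 and 10.5 CPM in IFNγ, the last on 3 counts in the shallow library. All 3 IFNγ samples lay below every control, with a log2 fold change of -0.66 (SE 0.25, adjusted p = 0.254), or -0.49 (adjusted p = 0.598) without that library. At 1 and 2 weeks Mcm6 had -0.28 (SE 0.22) and -0.18 (SE 0.23).
Mki67 was read at 56.4, 52.2 and 60.7 CPM in the 3-week controls and 80.0, 76.1 and 112 CPM in IFNγ, again without overlap, with 0.58 (SE 0.26, adjusted p = 0.414), or 0.49 (adjusted p = 0.655) without the shallow library. The other preset members at 3 weeks had log2 fold changes of -0.27 for Mcm5 (SE 0.17), -0.12 for Pcna (SE 0.12), 0.01 for Rrm2 (SE 0.18), 0.22 for Top2a (SE 0.18), -0.03 for Cdk1 (SE 0.11) and -0.03 for Ccnb1 (SE 0.15). Without the shallow library Top2a had -0.09 and Rrm2 0.17. At 1 and 2 weeks these 6 genes and Mki67 lay between -0.20 (Pcna, 1 week) and 0.28 (Top2a, 1 week).

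In CT26 edgeR called members at 2 weeks only, 1 in each direction, and both calls were lost in some fits without a replicate number. At 1 week 0 of 42 were called by either tool, with 3 at an unadjusted p under 0.05 in each, beside 0.728% of all genes called. At 2 weeks 2 were called by both tools, 1 of the higher and 1 of the lower genes, with 8 (6 in DESeq2) at an unadjusted p under 0.05, beside 1.67% of all genes called (0.928% higher, 0.74% lower). At 3 weeks 0 were called by edgeR and 1, Top2a, by DESeq2, with 9 (8 in DESeq2) at an unadjusted p under 0.05, beside 7.23% of all genes called and 22.1% of all genes at an unadjusted p under 0.05. The latter share was 7.33% at 1 week and 10.2% at 2 weeks, where it was 19% among members.
Ube2c, the ubiquitin-conjugating enzyme that works with the anaphase-promoting complex to destroy cyclins, fell at 2 weeks. It was read at 148, 146 and 150 CPM in the 2-week controls (148 ± 2.18, SD, n = 3) and at 84.0, 80.7 and 107 CPM in IFNγ (90.7 ± 14.6, SD, n = 3). Every IFNγ sample lay below every control, with a log2 fold change of -0.69 (SE 0.14, adjusted p = 0.00152). At the other ages Ube2c had -0.26 (SE 0.14, adjusted p = 0.728) at 1 week and -0.38 (SE 0.15, adjusted p = 0.124) at 3 weeks, or -0.30 and -0.46 (adjusted p = 0.697 and 0.0697) without the shallow libraries, and in YUMM2.1 it had -0.15, 0.14 and -0.27 at 1, 2 and 3 weeks. Leaving out replicate 1 or replicate 2 from all groups took its 2-week adjusted p to 0.223 or 0.11.
Mcm4, another subunit of the replicative helicase, rose at 2 weeks. It was read at 65.7, 58.6 and 60.7 CPM in the controls (61.7 ± 3.61, SD, n = 3) and 85.8, 95 and 102 CPM in IFNγ (94.3 ± 8.25, SD, n = 3). The groups did not overlap, and the log2 fold change was 0.61 (SE 0.16, adjusted p = 0.0243). The 2-week controls lay below the 0-week controls of 87.2, 72.4 and 75.5 CPM, and at 1 and 3 weeks Mcm4 had -0.26 (adjusted p = 0.79) and 0.13 (adjusted p = 0.672), or -0.24 and 0.27 without the shallow libraries. Its call was lost without any of the 3 replicates (adjusted p = 0.197, 0.179 and 0.275) and without a filter on low counts (adjusted p = 0.0773).
Among members that did not pass at 2 weeks, Cenpf, a kinetochore protein, was read at 440, 513 and 518 CPM in controls and 376, 383 and 415 CPM in IFNγ, with a log2 fold change of -0.32 (SE 0.10, adjusted p = 0.0958). The preset members at 2 weeks had 0.21 for Mcm5 (SE 0.14), 0.59 for Mcm6 (SE 0.31), 0.04 for Pcna (SE 0.12), 0.45 for Rrm2 (SE 0.17, adjusted p = 0.271), -0.09 for Mki67 (SE 0.49), 0.36 for Top2a (SE 0.16, adjusted p = 0.414), 0.04 for Cdk1 (SE 0.11) and -0.04 for Ccnb1 (SE 0.16).

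At 3 weeks in CT26 the 9 members at an unadjusted p under 0.05 in edgeR were all of the mitosis set. They split in direction, and their share of the 42 (21.4%) lay near that of all genes (22.1%). Of the wider pathway genes below, 8 of 39 other S phase genes and 8 of 47 other mitosis genes had such a p. Top2a was read at 160, 171 and 184 CPM in the 3-week controls and 209, 219 and 324 CPM in IFNγ, the last in the shallow library. It lay above every control, with a log2 fold change of 0.48 (SE 0.16, adjusted p = 0.0655). Without the shallow library it had 0.32 (adjusted p = 0.194), and with DESeq2 0.53 (adjusted p = 0.037).
Cdk1 was read at 277, 234 and 242 CPM in controls and 227, 177 and 191 CPM in IFNγ, all below every control, with -0.33 (SE 0.11, adjusted p = 0.07). Birc5, which encodes survivin of the chromosomal passenger complex, was read at 495, 489 and 442 CPM and then 411, 379 and 344 CPM, with -0.31 (SE 0.12, adjusted p = 0.113). Cenpe, a kinetochore motor, was read at 77.7, 68.7 and 89.4 CPM and then 94.8, 115 and 174 CPM, with 0.59 (SE 0.27, adjusted p = 0.177). Without the shallow libraries Cdk1 had -0.30 (adjusted p = 0.12), Birc5 -0.25 (adjusted p = 0.203) and Cenpe 0.41 (adjusted p = 0.321).
The remaining preset members at 3 weeks did not pass either. Mki67 had 0.98 (SE 0.44, adjusted p = 0.169) from 16.4, 11.1 and 19.7 CPM to 26.3, 41.7 and 23.4 CPM, or 1.08 (adjusted p = 0.134) without the shallow libraries. Mcm6 had 0.45 (SE 0.32), Mcm5 -0.21 (SE 0.14), Rrm2 0.16 (SE 0.18), Ccnb1 -0.23 (SE 0.16) and Pcna -0.05 (SE 0.12), which became 0.51, -0.14, 0.33, -0.19 and 0.09 without the shallow libraries. At 1 week Mki67 had 1.33 (SE 0.44, adjusted p = 0.31), with 12.8, 15.6 and 12.2 CPM in controls and 31.4, 18.9 and 66.4 CPM in IFNγ, and 0.94 (adjusted p = 0.697) without the shallow library. E2f1 was called in no age, and had 1.45 (SE 0.54, adjusted p = 0.40) at 1 week on 7.34, 4.75 and 2.92 CPM against 13.5, 12.1 and 12.6 CPM, and 1.44 (adjusted p = 0.386) without the shallow library. The other 7 preset members at 1 week lay between -0.09 (Ccnb1) and 0.36 (Mcm6).

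The 2 sets of CT26 were set side by side over the 3 ages. The S phase median log2 fold change was 0.10, 0.18 and 0.15 at 1, 2 and 3 weeks, with 13, 16 and 13 of 18 estimates above 0, and the mitosis median was 0.02, 0.00 and -0.10. Without replicate 2 of every group the S phase median was -0.02, 0.15 and 0.05, so its sign at 1 week depended on that replicate number. Without the shallow libraries the S phase median was 0.16 at 1 week and 0.19 at 3 weeks, and the mitosis median 0.01 and -0.18. Over all genes the medians were 0.01, 0.00 and 0.02, with 4388, 4258 and 4371 of 8516 estimates above 0. The 39 other S phase genes tested, from the wider pathway list below, had medians of 0.05, 0.02 and -0.04. Of their estimates 23, 24 and 17 lay above 0, so this wider list did not repeat the S phase values at 3 weeks. Scaling by library totals in place of TMM moved the median of all genes at 3 weeks from 0.02 to 0.22, the S phase median to 0.35 and the mitosis median to 0.10, so the sign of the mitosis median at 3 weeks depended on the scaling.

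For the difference between the lines in the response to 3 weeks of IFNγ, 0 of 42 members were called by either tool, with 2 (3 in DESeq2) at an unadjusted p under 0.05, beside 0.106% of genes called. Of all genes tested, 6.42% had an unadjusted p under 0.05 in edgeR. Mcm6 had the smallest p, lower in all 3 YUMM2.1 samples and higher in all 3 CT26 samples than every age-matched control, with a difference of 1.17 (SE 0.40, adjusted p = 0.409). The other preset members had differences of 0.12 (Mcm5), 0.13 (Pcna), 0.21 (Rrm2), 0.46 (Mki67), 0.34 (Top2a), -0.23 (Cdk1) and -0.14 (Ccnb1).

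**Figure D3:**
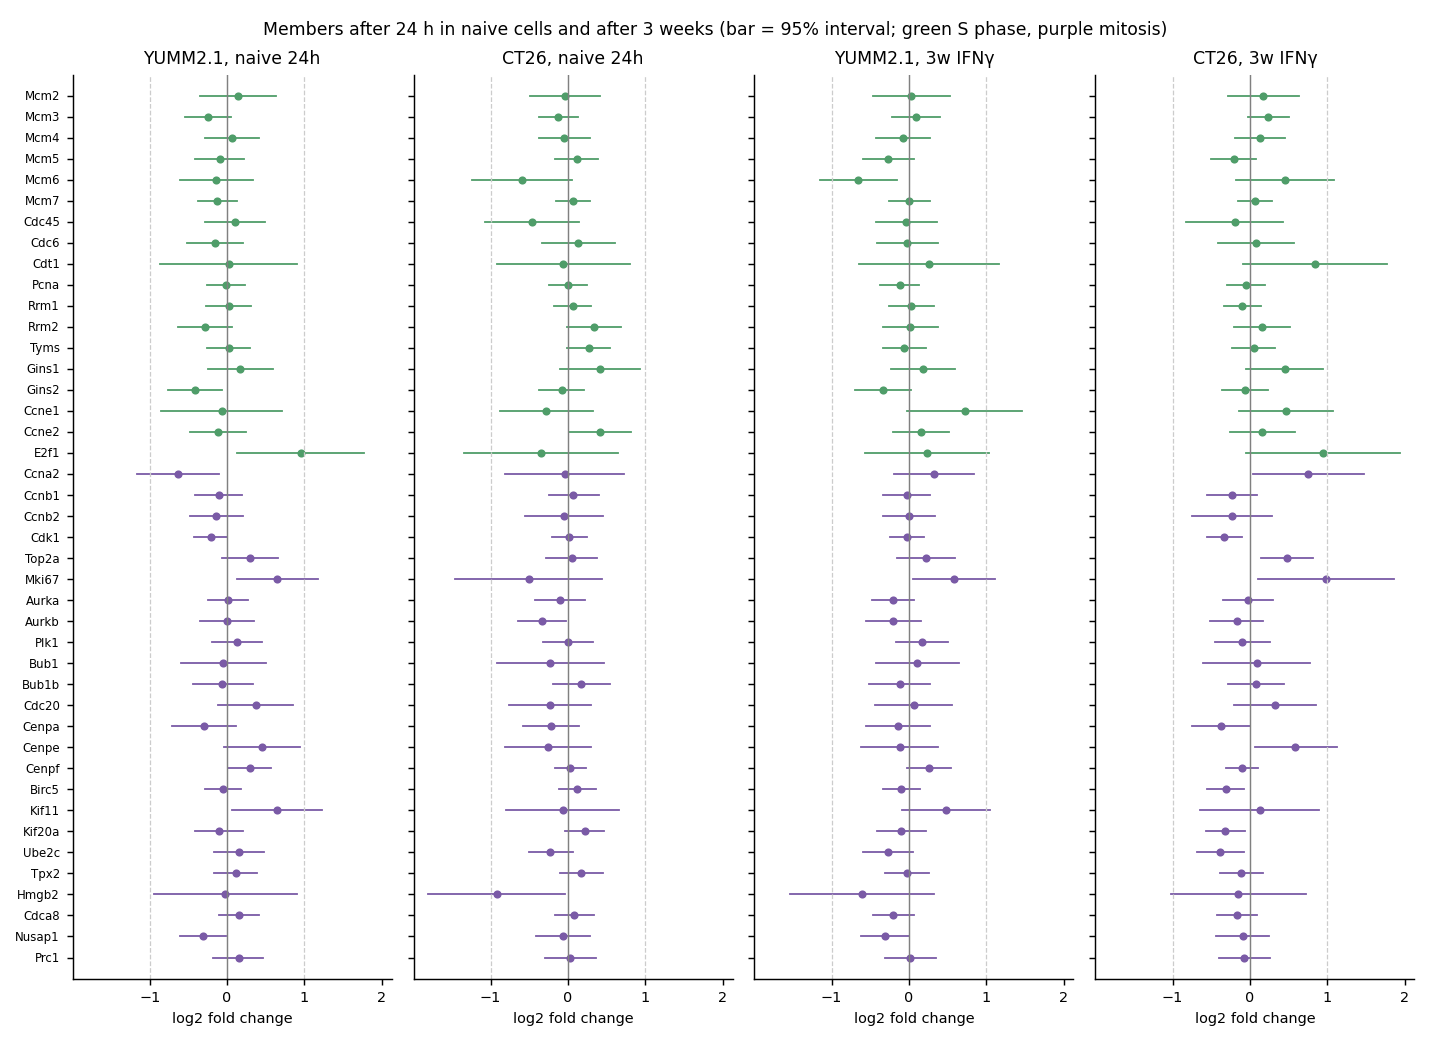
Log2 fold change (horizontal axis, point) with its 95% interval (bar) for each of the 42 members after 24 h in naive cells (left pair of panels) and after 3 weeks of IFNγ against the 3-week control (right pair), in green for S phase and purple for mitosis, with dashed lines at a 2-fold change. No member was called in these 4 panels, and 38 and 37 of 42 intervals after 24 h, then 35 and 34 after 3 weeks, lay between the dashed lines in YUMM2.1 and CT26.

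The values of Hmgb2 depended on single libraries. In CT26 at 3 weeks its IFNγ samples were read at 917, 674 and 4350 CPM, the last in the shallow library, against 1710, 1800 and 2820 CPM in controls. The log2 fold change was -0.15 (SE 0.44, adjusted p = 0.895) with all libraries and -1.40 (adjusted p = 0.00325) without the shallow ones. At 1 week the CT26 samples were 1420, 1060 and 5550 CPM, the last again shallow, against 1910, 2910 and 2990 CPM, with 0.01 (adjusted p = 1) or, without the shallow libraries, -1.08 (adjusted p = 0.125).
In YUMM2.1 Hmgb2 was read in the 1-week IFNγ samples at 664, 628 and 3330 CPM against 1360, 1690 and 1910 CPM in controls, and the sample at 3330 CPM had the second lowest total of the line, 484092 counts. There the log2 fold change was -0.14 (SE 0.45), or -1.35 (adjusted p = 0.179) without the 2 libraries of lowest total. That library also held the highest Top2a (658 CPM) and Cenpe (468 CPM) of all 45 YUMM2.1 samples. The part of library quality in these values was not tested.

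**Figure D4:**
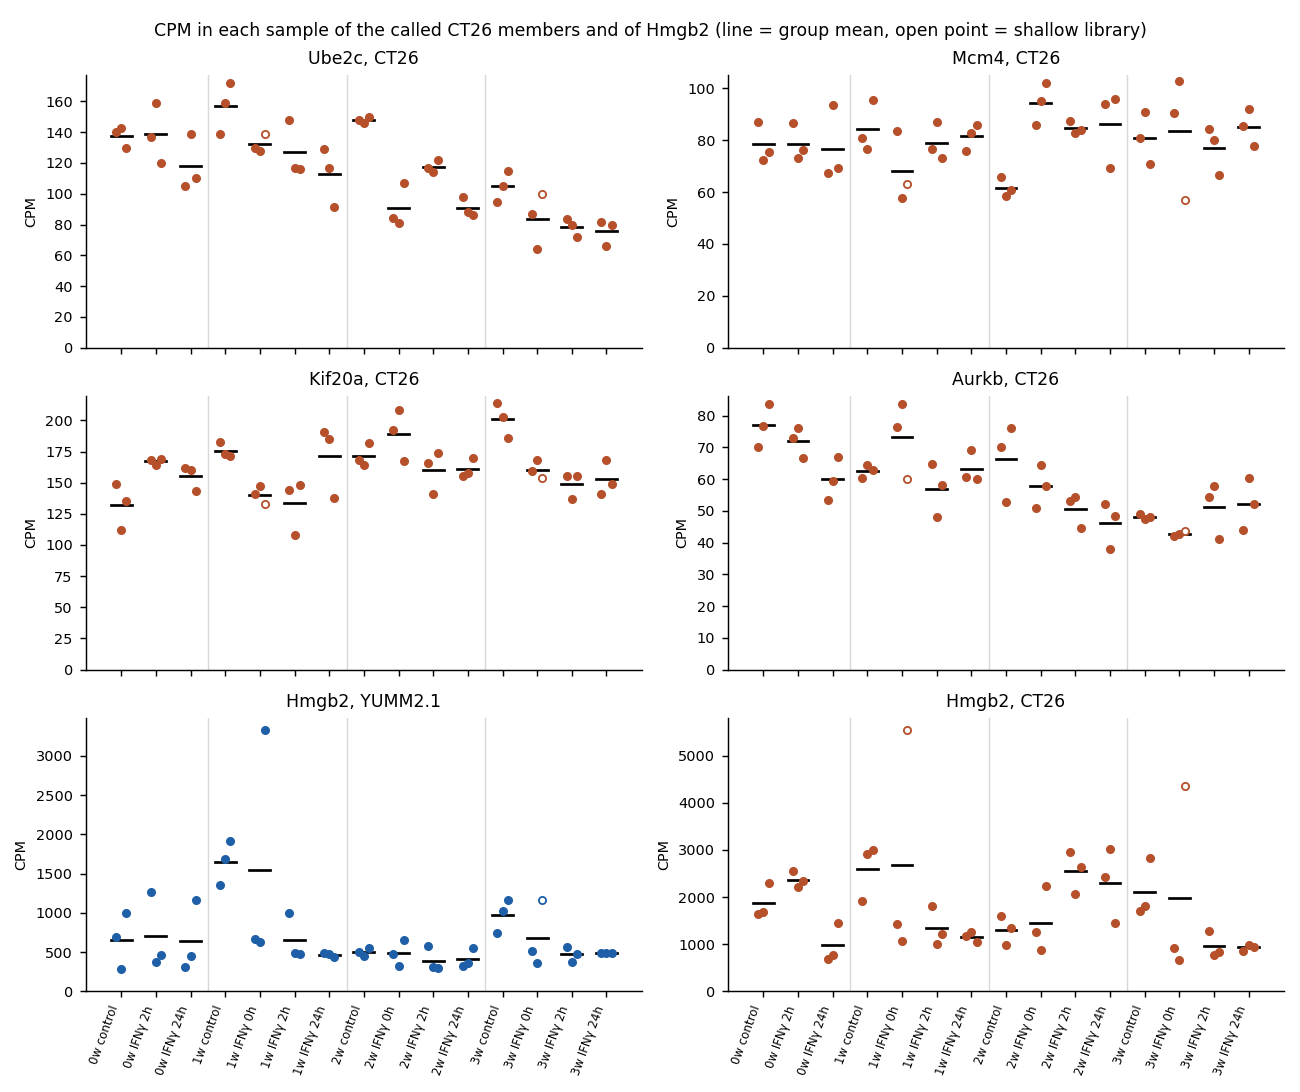
CPM (vertical axis, from 0) in each of 45 samples for the members called in CT26 (Ube2c, Mcm4, Kif20a and Aurkb) and for Hmgb2 in both lines, with a line at each group mean and open points for shallow libraries. Ube2c stands lower at 2 weeks of IFNγ than in the 2-week control, and the highest Hmgb2 values of CT26, 5550 and 4350 CPM, are open points.

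Rechallenge with fresh IFNγ, compared with the same week without rechallenge, called no member in either line. In YUMM2.1 the 2 h rechallenge gave 0 calls by either tool at each age, with 5, 2 and 6 members (5, 1 and 5 in DESeq2) at an unadjusted p under 0.05 after 1, 2 and 3 weeks, beside 0.615%, 0.428% and 1.08% of all genes called. The 24 h rechallenge gave 0 by either tool at each age, with 5, 1 and 2 members (5, 1 and 1 in DESeq2), beside 1.42%, 0.615% and 0% of all genes. In CT26 the 2 h rechallenge gave 0 by either tool, with 3, 8 and 3 members (1, 7 and 3 in DESeq2), beside 0.376%, 0.305% and 0.0117% of all genes. The CT26 24 h rechallenge gave 0 by either tool, with 3, 6 and 5 members (3, 4 and 5 in DESeq2), beside 1.32%, 0.658% and 0% of all genes. The shares of all genes at an unadjusted p under 0.05 in YUMM2.1 were 11.1%, 5.87% and 12.1% (2 h) and 9.25%, 6.02% and 3.66% (24 h). In CT26 they were 8.16%, 7.1% and 7.26% (2 h) and 9.36%, 7.16% and 5.16% (24 h). These comparisons share their unrechallenged samples with the comparisons of weeks above. Irf1 and Gbp2 were not called at 3 weeks after 24 h in YUMM2.1, nor after 2 h or 24 h in CT26. The counts of 0 there thus come without a called response of these 2 genes.
Some members came near the threshold. Hmgb2 after 1 week and 24 h in YUMM2.1 was read at 495, 471 and 439 CPM against 664, 628 and 3330 CPM, with a log2 fold change of -1.68 (SE 0.46, adjusted p = 0.0578), -1.67 (adjusted p = 0.0446) without the line's shallow library and -0.47 (adjusted p = 0.902) without its 2 libraries of lowest total. In CT26 the 3-week Hmgb2 values of -0.99 after 2 h and -1.04 after 24 h became 0.28 and 0.22 without the shallow libraries, and none of these passed. Cenpf after 1 week and 24 h in CT26 went from 473, 524 and 563 CPM to 457, 399 and 360 CPM, with -0.35 (SE 0.10, adjusted p = 0.0767), or -0.31 (adjusted p = 0.212) without the shallow libraries.
Cdc20, the activator of the anaphase-promoting complex, was read at 66.3, 70.6 and 54.1 CPM after 2 h of rechallenge at 3 weeks in YUMM2.1 against 29.3, 50.0 and 24.5 CPM without it, with no overlap and a log2 fold change of 0.81 (SE 0.25, adjusted p = 0.102), or 0.72 (adjusted p = 0.225) without the shallow library. Its 24 h samples were 32.6, 34.3 and 46.0 CPM. Cdc6, the helicase loader, lay below every unrechallenged sample after 2 h at 1 week (33.7, 31.6 and 38.4 against 54.1, 42.1 and 49.0 CPM, log2 fold change -0.50, SE 0.19, adjusted p = 0.311) and at 2 weeks (35.0, 36.8 and 35.2 against 58.8, 46.7 and 50.4 CPM, -0.55, SE 0.19, adjusted p = 0.366).
Over the 6 rechallenge comparisons of YUMM2.1 the preset members stayed between -0.28 (Mki67, 1 week, 24 h) and 0.46 (Mcm6, 3 weeks, 24 h). In CT26 Mki67 had the widest range, from -0.78 (1 week, 24 h) to 0.58 (2 weeks, 24 h), and the other 7, Mcm5, Mcm6, Pcna, Rrm2, Top2a, Cdk1 and Ccnb1, lay between -0.42 (Mcm6, 3 weeks, 24 h) and 0.39 (Mcm6, 1 week, 2 h).

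Control cultures kept in BSA were compared with the 0-week control, which all 3 ages share. In YUMM2.1 0 of 42 members were called by either tool at each age, with 4, 2 and 3 members (4, 2 and 5 in DESeq2) at an unadjusted p under 0.05 at 1, 2 and 3 weeks, beside 0.073%, 0.0209% and 0.521% of all genes called. In CT26 0 were called by either tool at 1 and 2 weeks, with 5 and 7 (4 and 7 in DESeq2) at an unadjusted p under 0.05, beside 0.0117% and 0.247% of all genes. At 3 weeks 2 CT26 members were called by both tools, 1 higher and 1 lower, with 10 (8 in DESeq2) at an unadjusted p under 0.05, beside 0.916% of all genes (0.575% higher, 0.341% lower). Of all genes, 7.95%, 4.61% and 8.33% had an unadjusted p under 0.05 in edgeR at 1, 2 and 3 weeks in YUMM2.1. In CT26 8.06%, 10.6% and 12% did, beside 23.8% of members at 3 weeks.
Kif20a, a kinesin of the spindle midzone in late mitosis, rose. It was read at 149, 112 and 135 CPM in the 0-week controls and 214, 203 and 186 CPM in the 3-week controls, without overlap, with a log2 fold change of 0.60 (SE 0.12, adjusted p = 0.00256). The 1-week controls were 183, 173 and 171 CPM and the 2-week controls 168, 164 and 182 CPM, all above every 0-week control, with 0.41 (adjusted p = 0.435) and 0.38 (adjusted p = 0.211). In YUMM2.1 Kif20a had -0.06, 0.04 and -0.04 at the 3 ages.
Aurkb, Aurora B, the kinase of the chromosomal passenger complex, fell. It was read at 70.2, 76.8 and 83.8 CPM in the 0-week controls and 49.1, 47.3 and 48.2 CPM in the 3-week controls, with no overlap and -0.68 (SE 0.14, adjusted p = 0.00728). Plk1, the Polo kinase, was read at 74.4, 63.1 and 68.9 CPM and then 41.7, 50.2 and 48.2 CPM, with -0.55 (SE 0.15, adjusted p = 0.0623). Leaving out replicate 1 or 2 ended the Kif20a call (adjusted p = 0.178 and 0.211), and leaving out any replicate ended the Aurkb call (adjusted p = 0.211, 0.135 and 0.212), as did using no filter on low counts (adjusted p = 0.055).
The preset members in control culture did not pass. Rrm2 in YUMM2.1 went from 736, 939 and 765 CPM at 0 weeks to 593, 581 and 526 CPM at 3 weeks, below every 0-week control, with -0.52 (SE 0.17, adjusted p = 0.242). Mcm6 in CT26 had between -0.73 (2 weeks) and -0.57 (3 weeks), and Mki67 in CT26 between -0.75 (1 week) and -0.50 (3 weeks). Mcm5, Pcna, Top2a, Cdk1 and Ccnb1 lay between -0.42 (Mcm5, 2 weeks, YUMM2.1) and 0.25 (Ccnb1, 2 weeks, CT26) over both lines and all ages.

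Across the 28 comparisons within the lines, 33 to 40 of the 42 members had a 95% interval inside a 2-fold change either way, against 45.4% to 58.8% of all genes tested. The median SE was 0.158 to 0.184 for members and 0.316 to 0.368 for all genes, so these shares also reflect precision. No such share among genes of like abundance is given. The members' intervals bound a change of the single transcripts. A change that left them within their replicate spread was not detectable at this depth.

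The wider pathway was read from lists of 40 other S phase genes and 47 other mitosis genes. All 47 mitosis genes were tested in both lines, with all 40 S phase genes in YUMM2.1 and 39 in CT26. In YUMM2.1, 1 of these genes was called in 1 of 14 comparisons, Tk1 (thymidine kinase), which was lower after 2 h of rechallenge at 3 weeks (log2 fold change -0.65, adjusted p = 0.0305), where 1.08% of all genes were called. In CT26 at 2 weeks of IFNγ, Ect2, a cytokinesis regulator, was called higher (0.67, adjusted p = 0.011), beside 0.928% of all genes called higher. In CT26 at 3 weeks of IFNγ, where 3.44% of all genes were called higher and 3.79% lower, 2 of 39 S phase genes were called higher, Dbf4 (1.09, adjusted p = 0.0217), which activates the origin-firing kinase, and Chaf1a (1.16, adjusted p = 0.0268), a histone chaperone. At the same age 2 of 47 mitosis genes were called lower, Cdca3 (-0.85, adjusted p = 0.00403) and Cks1b (-0.43, adjusted p = 0.0258), a partner of cyclin-dependent kinases. Ect2 was also called higher in the 3-week CT26 control against the 0-week control (0.58, adjusted p = 0.0348), beside 0.575% of all genes called higher. No other call was made among the 2 lists in the 28 comparisons within the lines.

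The lines differed from each other in many members before any IFNγ. In the 0-week controls 23 of 42 members were called by edgeR and 22 by DESeq2, beside 46% of all genes called. Of the 23, 10 were higher in CT26 (20.1% of all genes) and 13 lower (25.9% of all genes). Among S phase members 6 were higher and 5 lower in CT26, and among mitosis members 4 were higher and 8 lower. The same comparison called 22, 25 and 23 members in the 1-, 2- and 3-week controls (21, 26 and 21 in DESeq2), beside 49.3%, 44.6% and 49.2% of all genes. The members' share was somewhat above that of all genes at each age, most so at 2 weeks (25 of 42 beside 44.6%). In the wider pathway lists 18, 19, 13 and 20 of 40 other S phase genes were called at 0, 1, 2 and 3 weeks. Of the other mitosis genes 21, 21, 19 and 23 of 47 were. The median SE was 0.166 for members and 0.389 for all genes at 0 weeks, and 0.175 and 0.435 at 2 weeks, so the members' share also reflects precision. Whether the shares differ was not tested. Tissue, genetic background and culture of the 2 lines cannot be told apart here.
At all 4 ages 12 members were called with the same sign, as were 31.6% of all genes (3268 of 10339). Of the S phase members, Gins2, Mcm7 and Pcna were higher in CT26 and Ccne2 and Cdc45 lower. At 0 weeks Gins2 had 0.55 (adjusted p = 0.00194) and Cdc45 -0.75 (adjusted p = 0.00378). The 0-week call of Gins2 was lost without replicate 1 (0.33, adjusted p = 0.241), that of Pcna without replicate 1 (0.37, adjusted p = 0.135) and with library totals (0.23, adjusted p = 0.0943), and that of Cdc45 without replicate 1 (-0.79, adjusted p = 0.0513) and without replicate 3 (-0.44, adjusted p = 0.101). Of the mitosis members, Cenpf was higher in CT26, and Nusap1, Mki67, Prc1, Top2a, Ccnb2 and Cdk1 were lower, with -0.76 (adjusted p = 0.000906) for Ccnb2 at 0 weeks.
Nusap1, a spindle microtubule protein, was read at 85.8, 65.4 and 66.3 CPM in 0-week CT26 and 193, 154 and 171 CPM in 0-week YUMM2.1, scaled over all 90 samples. The samples of the lines did not overlap, and the difference (CT26 minus YUMM2.1) was -1.26 (SE 0.16, adjusted p = 1.72e-10), then -0.97, -0.78 and -0.94 at 1, 2 and 3 weeks. Prc1, a microtubule crosslinker of the midzone, was read at 251, 273 and 255 CPM against 549, 556 and 464 CPM, with -1.01 (SE 0.16, adjusted p = 1.31e-07).
Mki67 was read at 19.1, 31.0 and 23.2 CPM in CT26 and 55.3, 72.5 and 49.4 CPM in YUMM2.1, with -1.24 (SE 0.33, adjusted p = 0.00104), and the later ages gave -2.10, -2.14 and -1.65. Cdk1 was read at 272, 210 and 212 CPM against 376, 387 and 390 CPM, with -0.74 (SE 0.11, adjusted p = 6.66e-08). Top2a had -0.77 (SE 0.17, adjusted p = 7.57e-05).
Cenpf ran the other way, with 574, 514 and 572 CPM in CT26 and 345, 336 and 322 CPM in YUMM2.1, a difference of 0.72 (SE 0.11, adjusted p = 1.28e-07). Among the S phase genes, Mcm7 was read at 137, 144 and 135 CPM in CT26 and 87.7, 80.4 and 109 CPM in YUMM2.1, with 0.58 (SE 0.11, adjusted p = 9.94e-06). Ccne2 was read at 64.3, 58.7 and 59.8 CPM against 132, 148 and 114 CPM, with -1.10 (SE 0.19, adjusted p = 8.38e-07). Pcna was read at 420, 380 and 355 CPM against 298, 281 and 291 CPM, with 0.41 (SE 0.13, adjusted p = 0.00667).
Of the other preset members in the 0-week controls, Rrm2 (-0.71, adjusted p = 0.00118) and Ccnb1 (-0.41, adjusted p = 0.0332) were lower in CT26, while Mcm5 (0.26, adjusted p = 0.136) and Mcm6 (-0.21, adjusted p = 0.517) did not pass. Ube2c, which fell in CT26 at 2 weeks of IFNγ, was higher in CT26 at 0, 1 and 2 weeks (0.96, 0.88 and 1.03) and had 0.22 (adjusted p = 0.203) at 3 weeks. Hmgb2 had 1.67 (SE 0.47, adjusted p = 0.00297) at 0 weeks, on 1770, 1820 and 2480 CPM in CT26 and 659, 267 and 968 CPM in YUMM2.1. In each set 4 members were called at no age.
The remaining members called at 0 weeks were of both sets. Cdc6 had -0.82 (adjusted p = 0.000192) and Tyms, thymidylate synthase, -0.52 (adjusted p = 0.00196), with Tpx2, a spindle assembly factor, at -0.61 (adjusted p = 5.75e-05). These 3 calls held under all 9 alternatives. Mcm3 had 0.36 (adjusted p = 0.0181), Ccne1, which encodes cyclin E1, 0.76 (adjusted p = 0.0375), Cdt1 1.00 (adjusted p = 0.046) and Aurkb 0.44 (adjusted p = 0.0174). Of 9 alternatives, 4 ended the call of Mcm3, 5 that of Ccne1, 6 that of Cdt1 and 4 that of Aurkb, with adjusted p up to 0.30, 0.256, 0.143 and 0.167. Leaving out replicate 1 was among them for each of these genes, and leaving out replicate 2 as well (adjusted p = 0.0775, 0.0503, 0.0542 and 0.0803). The call of Ccnb1 was lost without any of the 3 replicates (adjusted p = 0.0591, 0.314 and 0.0593), and that of Rrm2 without replicate 2 (-0.51, adjusted p = 0.0723).
Scaling by library totals moved the median difference of all genes from -0.08 to -0.24 at 0 weeks and from -0.24, -0.20 and -0.23 to -0.44, -0.45 and -0.41 at 1, 2 and 3 weeks, so the differences here are relative to that of the other genes.

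**Figure D5:**
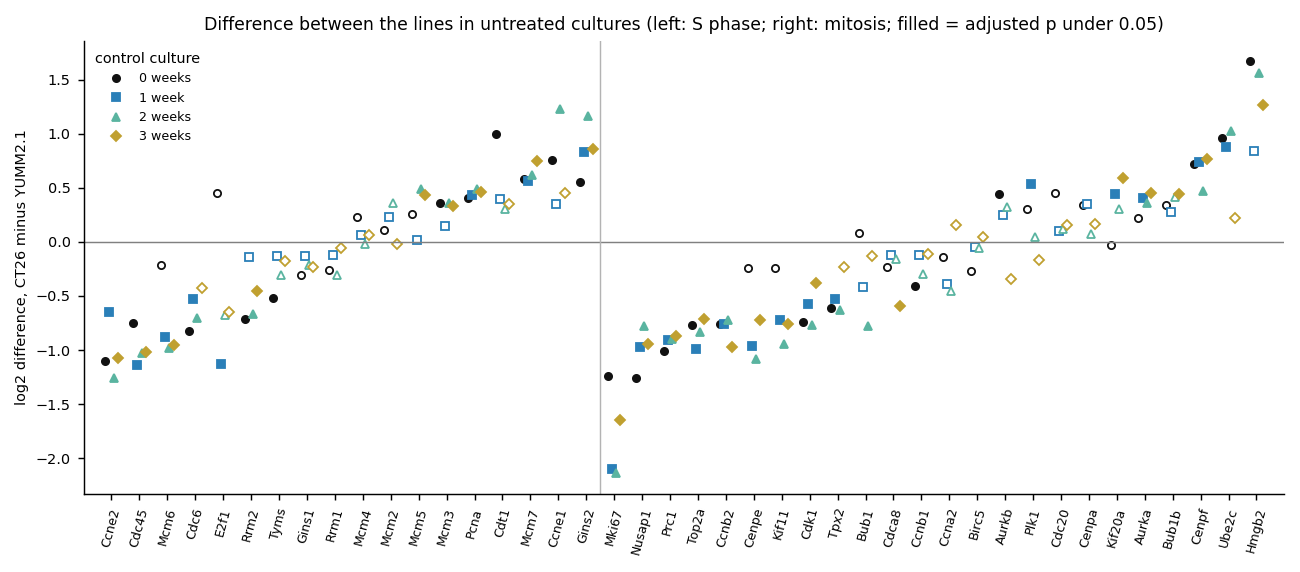
Log2 difference between the lines (CT26 minus YUMM2.1, vertical axis) for each member in control cultures at 0, 1, 2 and 3 weeks, with S phase members left and mitosis members right, and filled symbols for an adjusted p under 0.05. Ccne2, Cdc45, Nusap1 and Mki67 lie below 0 and Gins2, Mcm7 and Cenpf above 0 at all 4 ages, all filled.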

How the data were processed

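RNA from triplicate experiments was profiled by 3′ digital gene expression. Per the labels, the authors deposited 1 table of raw counts per Ensembl gene for 90 samples, with no normalisation. Their processing notes name Salmon 0.13.1 and the mouse build mm10, without further roles, and the study's methods state that some samples were discarded before its own analysis; all 90 were used here. Of 53697 identifiers, 53668 were paired with symbols from the GRCm38 annotation, and 0 columns were left unused. Totals ranged from 274719 to 3161276 counts per sample, which limits precision for members at low counts.

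Counts were filtered by group with filterByExpr, scaled by TMM and tested with edgeR 4.0.16 (quasi-likelihood test, R 4.3.3) in 1 fit of all 15 groups per line, or of 90 samples for differences between the lines, without covariates, and p-values were adjusted by the Benjamini-Hochberg method over all genes tested, with a threshold of 0.05. Standard errors and 95% intervals of log2 fold changes came from the same fits, and CPM was computed from the counts with a prior count of 2 for log values only. Alternatives were DESeq2 1.42.0, library totals, no filter, only the groups compared, a replicate block, fits without 1 of the 3 replicate numbers, and fits without libraries below 25% of the median total of their line. The scripts were tested on simulated data.

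The 42 members and all other lists were chosen with earlier results of these data known. In each comparison the members called were named, up to 10 of each set by adjusted p, and, whatever their result and as ranges in some comparisons, Mcm5, Mcm6, Pcna, Rrm2, Mki67, Top2a, Cdk1 and Ccnb1, called the preset members here; other members named (such as Cenpf or Hmgb2 within the lines, and Cdt1 and Aurkb between them) were chosen after their values were seen. The comparisons between the lines at 1, 2 and 3 weeks were added after the data were seen, and there only counts and selected members are given. Promoters came from RefSeq (GRCm38.p6). Some of the genes used to check labels are not reported here.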

Additional observations from a re-analysis of the deposited data

How the results depend on the processing

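Leaving out a replicate number from every group left 2 samples per group, and the members called then ranged from 0 to 1 for YUMM2.1 1 week with 24 h of rechallenge, from 0 to 1 (Hmgb2) for CT26 naive 24 h, from 0 to 2 for CT26 2 weeks of IFNγ, from 0 to 1 for CT26 3 weeks of IFNγ, from 0 to 1 for CT26 2 weeks with 2 h and from 0 to 2 with 24 h of rechallenge, from 0 to 1 for the CT26 3-week control, and from 15 to 20 for the 0-week lines. Without a filter on low counts 1 member was called in YUMM2.1 at 3 weeks of IFNγ, at 1 week with 2 h and with 24 h of rechallenge, and in CT26 at naive 24 h, 1 week of IFNγ, each of the 6 rechallenges, the 1-week and 3-week controls and the naive 24 h difference between the lines; 2 were called in the YUMM2.1 1-week and 3-week controls and the CT26 2-week control. Fits of only the groups compared called 3 and 1 in the YUMM2.1 1-week and 3-week controls and 1 (Hmgb2) in CT26 naive 24 h. At CT26 3 weeks of IFNγ library totals called 2 members (Top2a and Mcm3), DESeq2 called 1 (Top2a), the fit without shallow libraries called 1 (Hmgb2), and the latter fit also called 1 (Hmgb2) in YUMM2.1 at 1 week with 24 h of rechallenge. The cause of these moves was not tested.

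The labels do not say whether a replicate number marks shared handling. Samples of the same number had a mean correlation of deviations of 0 in YUMM2.1 and 0.01 in CT26, with 24 and 44 of 315 pairs over 0.1. A mean over all pairs cannot show whether some groups shared handling by number. Replicate 3 had the lowest total of the 1-week and 3-week IFNγ 0 h groups in YUMM2.1 (484092 and 274719) and in CT26 (322486 and 295157). Adding the replicate block called 1 member (Top2a) in CT26 at 3 weeks of IFNγ and left 33 of 34 counts within 1.5 times of their value.

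Hmgb2 changed sign: at YUMM2.1 1 week of IFNγ it had -1.23 to 0.26 when a replicate was left out (0.11 without replicate 1), at CT26 1 week -0.07 without a filter, -0.15 with the replicate block, -0.95 to 0.48 when a replicate was left out and -1.08 without shallow libraries, and at CT26 3 weeks -1.15 to 0.18 (0.09 without replicate 1). The span of group means became 0.33 (S phase, YUMM2.1), 0.42 (mitosis, YUMM2.1) and 0.59 (mitosis, CT26) on the log2 of summed CPM, an alternative added after seeing the data, and 0.38 (S phase) and 0.25 (mitosis) in CT26 with library totals. On the gene strand alone E2F lay in 1.38%, CHR in 13.2% and CCAAT in 23.7% of all promoters, and CCAAT in 65% of mitosis promoters.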
